A study of Homo sapiens with 4 samples.

Results

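The 10 tubulin isotype genes examined here were 4 genes of alpha-tubulin (TUBA1A, TUBA1B, TUBA1C and TUBA4A) and 6 genes of beta-tubulin (TUBB, TUBB2A, TUBB2B, TUBB3, TUBB4B and TUBB6). They were taken by symbol from the 24462 gene symbols counted in every library. TUBB was listed 8 times in each table, with reads on 1 of those entries only, and each other gene was listed once. Messenger RNA was measured in HepG2, a human line that the authors class as hepatocellular carcinoma, in 4 QuantSeq 3′ libraries with 1 library per condition. The cells had received DMSO, the solvent control, or PD0332991 (palbociclib, an inhibitor of the kinases CDK4 and CDK6), or were transfected either with scrambled siRNA oligos or with siRNA against both kinases (CDK4/6 KD). All libraries came from the same unedited cell line, so that no condition stands for a separate clone or donor. For how long and at which dose PD0332991 was given, and when the transfected cells were harvested, is not given in the sources used here.

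Alpha- and beta-tubulin pair into the dimers from which microtubules are built, the filaments that form the mitotic spindle, carry vesicles and support cilia and neurites. Humans make several isotypes of each, which differ mainly in their acidic tails and in the tissues that use them. Cells also hold the amount of tubulin messenger RNA in check, because an excess of free dimers leads to the decay of tubulin messages that are being translated.

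The libraries held 8983848 to 11176880 counted reads. There were no replicates, so that differences could not be set against a spread between cultures and no test was made. Each fold change is a ratio of counts scaled to library size with TMM factors, and its 95% interval is the exact Clopper-Pearson interval on the split of the gene's reads between the libraries compared. These intervals compare libraries, not conditions, and cover counting error only, without any account of PCR copies. In whole cultures, fewer cells that express a gene and less RNA of that gene per cell cannot be told apart. CDK4 (fold change: 0.203, interval 0.188 to 0.219) and CDK6 (fold change: 0.241, interval 0.228 to 0.256) were lower in the CDK4/6 KD library than with scrambled siRNA. After PD0332991 they stood at 0.854 and 0.930 of DMSO. All 7 hepatocyte markers examined, among them ALB and HNF4A, had reads in every library. RBFOX3 and STMN2, which mark neurons, were at 0 in all 4 libraries, and the 7 neuron markers together had 26 reads with DMSO, 6 with PD0332991, 15 with scrambled siRNA and 60 with CDK4/6 KD. The basal keratinocyte keratins KRT5 and KRT14 had 2 and 9 reads with DMSO and 113 and 249 with PD0332991, while the 7 keratinocyte markers together stood at 201 normalized CPM (reads scaled to a common library size) with DMSO, 180 with PD0332991, 358 with scrambled siRNA and 199 with CDK4/6 KD. SFN gave 1221, 563, 3266 and 1152 of these reads in the same order of libraries, and of the 4 markers past 10 reads the other 3 (KRT5, KRT14 and KRT10) had intervals above 1 in both arms. KRT1 was at 0 with DMSO, TP63 with scrambled siRNA and DSG3 with CDK4/6 KD. The 7 fibroblast markers stood at 48.7, 78.6, 8.78 and 22.7, and the 7 leukocyte markers, of which nearly all reads were of LYZ, at 755, 522, 1036 and 511, with CD3E at 0 in all 4 libraries. The part of these markers in the tubulin values was not tested.

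The 250 bases before the RefSeq transcription start are shown for the members that carried most tubulin reads (TUBA1B, TUBA1C, TUBB and TUBB4B), which were lower with both treatments, and for TUBB2B, which was higher with both. Sequences are from RefSeq on GRCh38.p14 and read 5′ to 3′ on the strand of the gene. Where RefSeq gave several starts for a gene, the one nearest to the start of the principal GENCODE 29 transcript was used. The starts used for the 10 genes lay 0 to 244 bases from that of the principal transcript. Further RefSeq starts of TUBA1C, TUBB, TUBB3 and TUBB6 lay 390 to 36981 bases away and were not used. Capitals mark CCAAT, the box bound by NF-Y, and TTTGAA, the cell cycle genes homology region (CHR), each on either strand.
TUBA1B (chr12:49131396-49131645, minus strand): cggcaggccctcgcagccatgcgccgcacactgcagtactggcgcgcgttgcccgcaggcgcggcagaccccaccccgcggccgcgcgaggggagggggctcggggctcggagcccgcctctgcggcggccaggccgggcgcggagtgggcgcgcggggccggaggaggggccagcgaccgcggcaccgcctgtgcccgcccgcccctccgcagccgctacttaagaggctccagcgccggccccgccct
TUBA1C (chr12:49264832-49265081, plus strand): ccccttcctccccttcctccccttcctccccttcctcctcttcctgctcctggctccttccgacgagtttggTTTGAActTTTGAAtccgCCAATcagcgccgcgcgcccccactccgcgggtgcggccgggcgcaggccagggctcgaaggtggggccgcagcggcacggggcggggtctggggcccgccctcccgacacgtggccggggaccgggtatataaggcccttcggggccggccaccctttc
TUBB (chr6:30720102-30720351, plus strand): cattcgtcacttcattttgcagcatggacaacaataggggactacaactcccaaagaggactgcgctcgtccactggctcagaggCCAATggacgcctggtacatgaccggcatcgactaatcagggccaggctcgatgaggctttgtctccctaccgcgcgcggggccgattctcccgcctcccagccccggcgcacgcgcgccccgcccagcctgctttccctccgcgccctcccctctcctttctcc
TUBB4B (chr9:137241037-137241286, plus strand): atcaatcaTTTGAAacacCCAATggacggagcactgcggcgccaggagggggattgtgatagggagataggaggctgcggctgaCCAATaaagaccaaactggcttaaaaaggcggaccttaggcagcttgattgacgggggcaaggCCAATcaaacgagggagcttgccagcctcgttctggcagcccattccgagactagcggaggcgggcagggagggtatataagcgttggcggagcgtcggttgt
TUBB2B (chr6:3227654-3227903, minus strand): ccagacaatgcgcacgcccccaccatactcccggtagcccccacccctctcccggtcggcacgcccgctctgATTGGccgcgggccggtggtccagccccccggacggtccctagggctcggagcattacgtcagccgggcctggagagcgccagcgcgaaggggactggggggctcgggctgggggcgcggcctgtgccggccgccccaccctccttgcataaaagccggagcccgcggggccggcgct

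The TUBB4B window held CCAAT 3 times and TTTGAA once, at 242 bases before the start. The TUBA1C window held TTTGAA at 178 and at 170 bases before the start and CCAAT at 160. TUBB had a single CCAAT at 165 bases and TUBB2B one at 178, written on the other strand as ATTGG. TUBA1B, the alpha-tubulin gene with most reads in 3 of the 4 libraries, had neither of these letter strings in the window but held GGGCGG (a GC box) 3 times. Over all 10 genes, with a single window per gene, CCAAT was present in 7 windows and TTTGAA in 2. Of 35116 RefSeq windows of the same length, 32.0% held CCAAT and 13.3% TTTGAA. Those windows can include several per gene, so that the shares are not on quite the same footing. GGGCGG was found in 8 (42.6% of all windows), TTTNNCGC, an E2F-type string, in TUBB6 only (5.92% of all windows, and overlapping a GC box there), and TATAAA in TUBB2A only (10.7%). At the further RefSeq starts, the windows of TUBB, TUBB3 and TUBB6 lacked CCAAT, and those of TUBA1C held it. The further window of TUBB6 also lacked TTTNNCGC. In the windows used, CCAAT was present in TUBA1A, TUBA1C, TUBB, TUBB2B, TUBB3, TUBB4B and TUBB6, and absent from TUBA1B, TUBA4A and TUBB2A. The part of this box in the tubulin values was not tested. A match of letters is a description of the window and not a site shown to be bound, and the counts hold no binding data.

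Tubulin messages took 1.05% of all counted reads with DMSO (95618 reads), 0.416% with PD0332991 (37408 reads), 1.06% with scrambled siRNA (118328 reads) and 0.563% with CDK4/6 KD (61988 reads). The control libraries were thus close to each other and both treated libraries lay well below them. The summed tubulin count was 0.495 of scrambled siRNA in CDK4/6 KD (interval 0.490 to 0.50) and 0.393 of DMSO after PD0332991 (interval 0.388 to 0.397). Between the control libraries, scrambled siRNA to DMSO, it was 1.06 (interval 1.05 to 1.07).

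TUBB had the highest read count of the 10 genes in every library, followed by TUBA1B and TUBA1C except with PD0332991, where TUBA1C stood above TUBA1B. Reads were compared between genes without division by length, since priming at the poly(A) tail gives reads near the 3′ end of a transcript whatever its length. TUBB4B came next in both control libraries. With PD0332991 it was passed by TUBB3, and with CDK4/6 KD by TUBB6 and TUBB3. The counting intervals of TUBB3 and TUBB6 overlapped with scrambled siRNA and with CDK4/6 KD, and those of TUBA1A and TUBA4A overlapped with PD0332991, so that these neighbours were not separated at this depth. All other neighbours in the order were separated by their intervals within each library. TUBB2B ranked above TUBA1A in both treated libraries and below it in both controls.

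**Figure D1:**
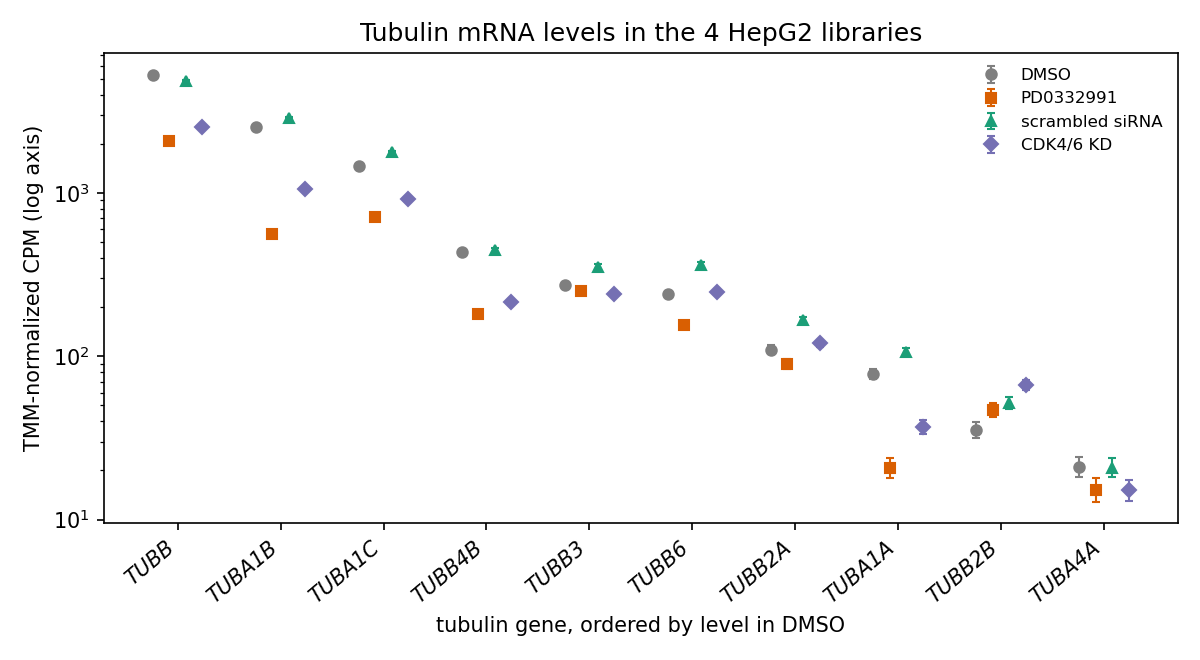
Level of each tubulin gene (TMM-normalized CPM, log axis) in the DMSO, PD0332991, scrambled siRNA and CDK4/6 KD libraries, with genes ordered by their DMSO level. Each point is 1 library and bars, mostly smaller than the points, are exact 95% Poisson intervals for counting error. TUBB is highest in each library, at 5279 in DMSO and 2070 in PD0332991, and TUBB2B is the one gene whose treated points lie above the matched control points in both arms.

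Among the alpha-tubulins, TUBA1B, the isotype most widely used in dividing cells, lies on chromosome 12 (49127782 to 49131397, minus strand; GENCODE 29, GRCh38). It had 23122 reads with DMSO, 5143 with PD0332991, 30901 with scrambled siRNA and 12008 with CDK4/6 KD, that is 2531, 565, 2888 and 1061 normalized CPM. Both treated libraries lay below both controls. Its fold change was 0.367 in CDK4/6 KD (interval 0.360 to 0.375) and 0.223 after PD0332991 (interval 0.217 to 0.230), the lowest of the 10 genes in the PD0332991 arm.

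TUBA1A, the alpha-tubulin known for its high level in young neurons, lies in the same cluster (chromosome 12, 49184796 to 49189324, minus strand) at a much lower count. It had 713 reads with DMSO, 189 with PD0332991, 1132 with scrambled siRNA and 420 with CDK4/6 KD. The treated libraries were again below both controls. The fold change of TUBA1A was 0.351 in CDK4/6 KD (interval 0.313 to 0.393), the lowest of the members in that arm, and 0.267 after PD0332991 (interval 0.225 to 0.313). These intervals overlapped those of TUBA1B in the siRNA arm, and in the PD0332991 arm as well.

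TUBA1C, a broadly expressed alpha-tubulin, is the third gene of the cluster (chromosome 12, 49188736 to 49274603, plus strand), where its annotated 5′ part overlaps TUBA1A on the opposite strand. It was lower by less than its neighbours, with 13351 reads with DMSO, 6464 with PD0332991, 19076 with scrambled siRNA and 10391 with CDK4/6 KD. Its fold change was 0.515 in CDK4/6 KD (interval 0.503 to 0.527) and 0.486 after PD0332991 (interval 0.472 to 0.501). In neither arm did the interval of TUBA1C meet that of TUBA1B.

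TUBA4A, whose encoded protein lacks the tail tyrosine that the other alpha-tubulins here carry, lies on chromosome 2 (219249711 to 219278170, minus strand). It was the least counted member in every library, with 193 reads with DMSO, 139 with PD0332991, 223 with scrambled siRNA and 171 with CDK4/6 KD. Its fold change was 0.725 in CDK4/6 KD (interval 0.590 to 0.889) and 0.723 after PD0332991 (interval 0.577 to 0.903). The last 500 bases of TUBA4A lie within STK16 on the opposite strand, which had 471, 752, 730 and 554 reads in the DMSO, PD0332991, scrambled siRNA and CDK4/6 KD libraries. Whether the authors counted reads by strand is not given in the sources used here, so that the reads of these genes cannot be told apart with certainty.

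Of the beta-tubulins, TUBB, the class I isotype present in most tissues, lies on chromosome 6 (30720201 to 30725426, plus strand). It had 48233 reads with DMSO, 18850 with PD0332991, 52203 with scrambled siRNA and 28906 with CDK4/6 KD. The fold change of TUBB was 0.523 in CDK4/6 KD (interval 0.516 to 0.531) and 0.392 after PD0332991 (interval 0.386 to 0.399). It was the one member whose interval lay under 1 between the controls (scrambled siRNA to DMSO, 0.924, interval 0.913 to 0.936). GENCODE 29 lists 8 pseudogenes named after TUBB, yet none of the 426 stretches of 75 bases in its last 500 bases occurred in another annotated gene.

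TUBB4B, the class IVb isotype, is widely expressed and known also from cilia, and lies on chromosome 9 (137241213 to 137243707, plus strand). It had 3966 reads with DMSO, 1662 with PD0332991, 4763 with scrambled siRNA and 2437 with CDK4/6 KD. Its fold changes were 0.484 in CDK4/6 KD (interval 0.460 to 0.508) and 0.421 after PD0332991 (interval 0.397 to 0.445), and its controls agreed within counting error (1.03, interval 0.983 to 1.07). Across the 4 libraries its pattern was nearest to that of TUBB, with a root mean square difference of 0.0579 in centred log2 level. FAM166A, the gene on the opposite strand, overlaps the last 124 bases of TUBB4B, and its count followed that of TUBB4B at 0.930, 0.925, 0.931 and 0.929 of it in the DMSO, PD0332991, scrambled siRNA and CDK4/6 KD libraries. With strand use not known, reads of this gene pair cannot be told apart.

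TUBB6, the class V isotype, lies on chromosome 18 (12307669 to 12344320, plus strand). It had 2214 reads with DMSO, 1421 with PD0332991, 3901 with scrambled siRNA and 2812 with CDK4/6 KD. The fold change of TUBB6 was 0.681 in CDK4/6 KD (interval 0.649 to 0.715) and 0.644 after PD0332991 (interval 0.602 to 0.689). Its CDK4/6 KD count was below scrambled siRNA but not separated from DMSO (1.03 of DMSO, interval 0.969 to 1.08), and the control libraries themselves differed 1.5-fold. PD0332991 was at 0.428 of scrambled siRNA (interval 0.403 to 0.455).

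TUBB3, the class III isotype used as a marker of neurons and also made by many tumours, lies on chromosome 16 (89921392 to 89938761, plus strand). It had 2502 reads with DMSO, 2295 with PD0332991, 3784 with scrambled siRNA and 2731 with CDK4/6 KD, beside neuron markers at or near 0. Its fold change was 0.682 in CDK4/6 KD (interval 0.649 to 0.717) and 0.920 after PD0332991 (interval 0.869 to 0.975). CDK4/6 KD was at 0.881 of DMSO (interval 0.834 to 0.931), and PD0332991 at 0.713 of scrambled siRNA (interval 0.676 to 0.751). In normalized CPM the treated libraries were close, at 252 with PD0332991 and 241 with CDK4/6 KD. The controls lay further apart, at 274 with DMSO and 354 with scrambled siRNA. Among the members below 1 after PD0332991, TUBB3 was the closest to its control.

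TUBB2A and TUBB2B, near-identical class II genes best known from neurons, are neighbours on chromosome 6 (3153669 to 3157526 and 3224261 to 3231730, both on the minus strand). TUBB2A had 1000 reads with DMSO, 816 with PD0332991, 1788 with scrambled siRNA and 1356 with CDK4/6 KD. Its fold change was 0.717 in CDK4/6 KD (interval 0.668 to 0.770) and 0.819 after PD0332991 (interval 0.746 to 0.899), but CDK4/6 KD was at 1.09 of DMSO (interval 1.01 to 1.19) and PD0332991 at 0.536 of scrambled siRNA (interval 0.493 to 0.583).

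TUBB2B had 324 reads with DMSO, 429 with PD0332991, 557 with scrambled siRNA and 756 with CDK4/6 KD, so that each treated library was above its own control. TUBB2B was the only one of the 10 genes higher in both arms, at 1.28 in CDK4/6 KD (interval 1.15 to 1.43) and 1.33 after PD0332991 (interval 1.15 to 1.54). The fold changes were smaller than that between the controls, where scrambled siRNA was at 1.47 of DMSO (interval 1.28 to 1.69), and PD0332991 was at 0.905 of scrambled siRNA (interval 0.796 to 1.03). Of the 75-base stretches in the last 500 bases, 53.5% of those of TUBB2A occurred in another annotated gene, TUBB2B among them, and none of those of TUBB2B, so that part of the TUBB2A count may be shared. For TUBA1B this share was 41.1%, for TUBB3 16.9%, for TUBB4B 16.2% and for TUBA1A 16.0%, while it was 0 for TUBA1C, TUBA4A and TUBB6. With up to 2 mismatches allowed it was 59.2% for TUBA1B, 54.7% for TUBB2A, 33.3% for TUBA1A, 29.6% for TUBB4B and 18.3% for TUBB3. Genes that overlap a member at its own locus were left out of these shares, which are thus too low where such genes reach the 3′ end. AC092143.1, on the same strand, spans 495 of the last 500 bases of TUBB3. On the opposite strand, AC011603.2 spans all 500 of TUBA1B, STK16 all 500 of TUBA4A and FAM166A 124 of TUBB4B.

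In the siRNA arm, 3 of the 10 genes were at least 2-fold lower in CDK4/6 KD (TUBA1A, TUBA1B and TUBB4B), against 7.62% of the 13617 genes that reached 10 reads in 1 or both libraries, and 0 were at least 2-fold higher, against 9.19%. The whole interval lay under 1 for 9 genes (31.9% of all genes, and 46.2% of the 4126 well-counted genes with 500 reads or more on average) and above 1 for TUBB2B (30.0% and 32.6%). Over the 10 genes the log2 fold change had a median of -0.74, while over all genes the median was -0.0036. With TUBB at 0.523 and TUBA1C at 0.515, another 2 members stood just short of the 2-fold line, so that 5 were lower by 1.5-fold or more, against 17.4% of all genes. The count of 3 became 2 with total counts alone, where TUBB4B was at 0.520, and also 2 when the full interval, not the point alone, was asked to pass 2-fold. It became 4 against DMSO, where TUBB was at 0.484.

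In the PD0332991 arm, 5 of the 10 genes were at least 2-fold lower than with DMSO (TUBA1A, TUBA1B, TUBA1C, TUBB and TUBB4B), against 7.06% of 13443 genes, and 0 were at least 2-fold higher, against 7.49%. At 1.5-fold the count was 6, against 15.1%. The interval lay under 1 for 9 genes (28.6% of all genes and 40.4% of well-counted genes) and above 1 for TUBB2B (28.1% and 35.0%). The median log2 fold change was -0.84, beside 0.018 over all genes. All members passed the minimum of 10 reads in every comparison. Of the well-counted genes, 5.43% in CDK4/6 KD and 3.93% after PD0332991 were at least 2-fold lower. The count of 5 members after PD0332991 became 4 when the whole interval was asked to pass 2-fold, since that of TUBA1C ended at 0.501. It became 6 against scrambled siRNA, where TUBB6 was at 0.428.

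Between the control libraries, 0 of the 10 genes differed 2-fold in either direction, against 6.64% of 13303 genes lower and 5.3% higher with scrambled siRNA than with DMSO. The interval lay above 1 for 7 members (28.3% of all genes and 43.5% of well-counted genes), with TUBB2A at 1.53 (interval 1.41 to 1.65), TUBB6 at 1.5 (interval 1.43 to 1.59) and TUBB2B at 1.47 the highest. It lay under 1 for TUBB alone (28.0% and 32.3%), and TUBB4B and TUBA4A had intervals that held 1. The difference between controls in TUBB2A, TUBB2B and TUBB6 was therefore about as large as, or larger than, their differences within an arm. TUBB3 was at 1.29 between the controls (interval 1.23 to 1.36), a larger difference than that after PD0332991 and a smaller one than that in CDK4/6 KD. The control difference was the smaller in both arms for TUBA1A, TUBA1B, TUBA1C, TUBA4A, TUBB and TUBB4B. For TUBA4A, at 0.987 between the controls (interval 0.810 to 1.20), the interval overlapped those of both arms.

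**Figure D2:**
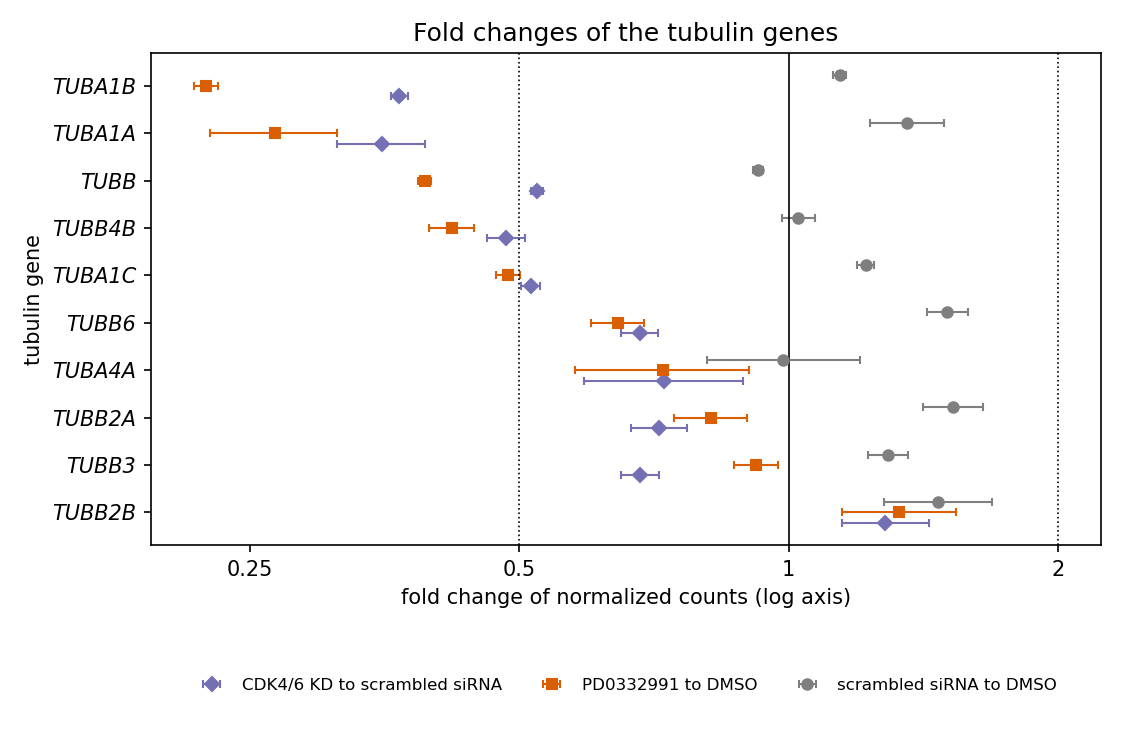
Fold change of each tubulin gene (log axis) for CDK4/6 KD to scrambled siRNA, PD0332991 to DMSO, and the control libraries scrambled siRNA to DMSO. Points are ratios of normalized counts, bars are exact 95% counting intervals, the solid line is at 1 and the dotted lines are at 2-fold in each direction. TUBA1B and TUBA1A lie farthest to the left in both arms, at 0.223 and 0.267 after PD0332991, and TUBB2B lies to the right of 1 in all 3 comparisons.

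The make-up of each tubulin class, a measure that does not depend on library size, also differed between the libraries. TUBA1B gave 61.9% of alpha-tubulin reads with DMSO (interval 61.4 to 62.4) and 43.1% with PD0332991 (interval 42.2 to 44.0), while TUBA1C went from 35.7% to 54.2%. In the siRNA arm TUBA1B gave 60.2% with scrambled siRNA (interval 59.8 to 60.6) and 52.2% with CDK4/6 KD (interval 51.6 to 52.9), and TUBA1C 37.2% and 45.2%. The difference between the controls in the share of TUBA1B, scrambled siRNA minus DMSO, was -1.66 percentage points. TUBA1C thus held most of the alpha class with PD0332991 only, and TUBA1B in the other 3 libraries.

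Among beta-tubulin reads, TUBB gave 82.8% with DMSO, 74.0% with PD0332991, 77.9% with scrambled siRNA and 74.1% with CDK4/6 KD. The share of TUBB3 was 4.30% with DMSO and 9.01% with PD0332991, and 5.65% with scrambled siRNA and 7.0% with CDK4/6 KD. The minor class II genes also took more of the total, TUBB2A with 1.72% and 3.20% in the PD0332991 arm and 2.67% and 3.48% in the siRNA arm, and TUBB2B with 0.556% and 1.68%, and 0.831% and 1.94%. The share of TUBB6 was 3.80% and 5.58%, and 5.82% and 7.21%. That of TUBB4B was 6.81% and 6.52% in the PD0332991 arm, and 7.11% (interval 6.92 to 7.31) and 6.25% (interval 6.01 to 6.49) in the siRNA arm. For TUBB the difference between controls, scrambled siRNA minus DMSO, was -4.9 percentage points and exceeded that of CDK4/6 KD minus scrambled siRNA, at -3.80. The controls also differed in the same way by 0.952 points for TUBB2A, 2.02 for TUBB6 and 1.35 for TUBB3, beside 0.808, 1.39 and 1.35 for CDK4/6 KD minus scrambled siRNA. For PD0332991 minus DMSO these shares differed by 1.49, 1.78 and 4.71 points.

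**Figure D3:**
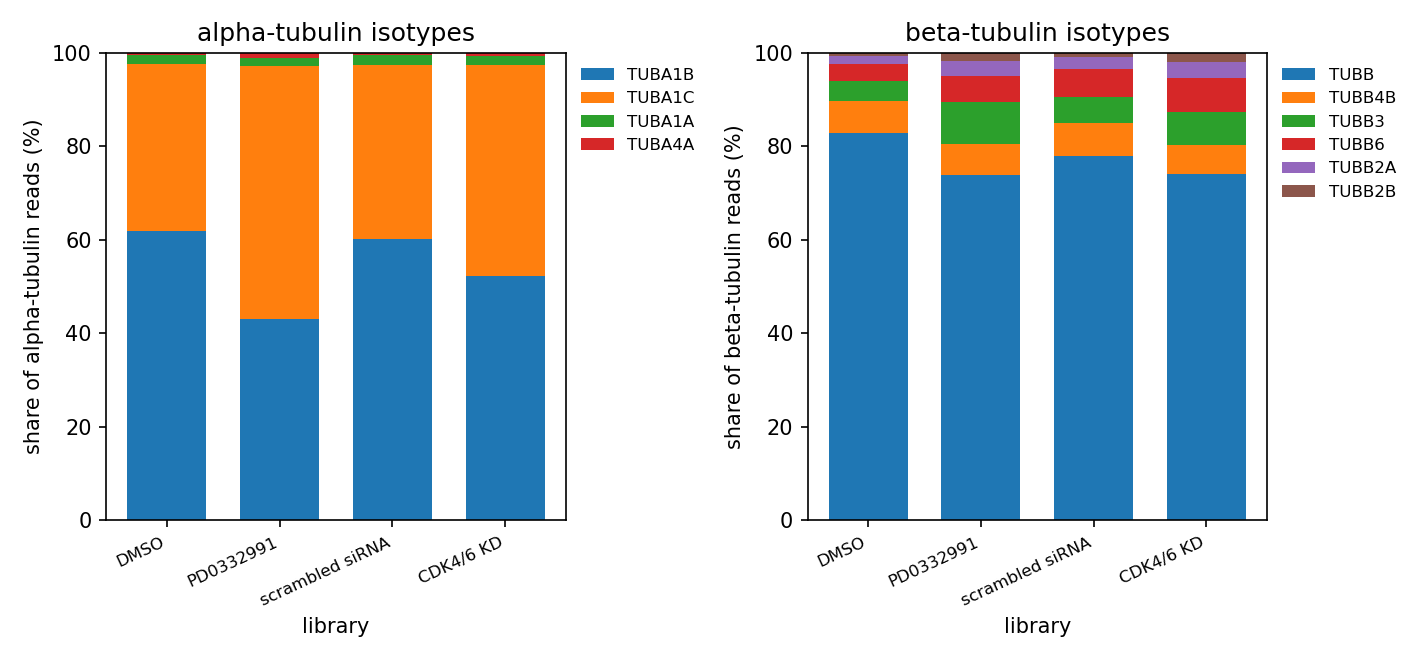
Share of each isotype (percent) among alpha-tubulin reads (left) and beta-tubulin reads (right) in each of the 4 libraries. Colours stand for genes, stacked from the most to the least counted in DMSO. TUBA1C takes the larger part of the alpha-tubulin reads only with PD0332991 (54.2%), and TUBB takes the most beta-tubulin reads in each library, from 74.0% to 82.8%.

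Alpha-tubulin as a whole was lower by more than beta-tubulin. The summed alpha-tubulin count was 0.423 of scrambled siRNA in CDK4/6 KD and 0.320 of DMSO after PD0332991, and that of beta-tubulin 0.550 and 0.439. The ratio of alpha- to beta-tubulin reads was 0.642 with DMSO (interval 0.634 to 0.650), 0.469 with PD0332991 (interval 0.458 to 0.479), 0.766 with scrambled siRNA (interval 0.757 to 0.775) and 0.590 with CDK4/6 KD (interval 0.580 to 0.599). Each treated library lay under its control. The controls also differed, and CDK4/6 KD was below DMSO by less than it was below scrambled siRNA.

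Some member pairs shared a pattern over the 4 libraries, measured as above by the root mean square difference in centred log2 level. TUBA1A was nearest to TUBA1B (0.103), TUBB2A to TUBB6 (0.138), and TUBB3 to TUBA4A (0.153). TUBA1A and TUBA1B were each among the genes that matched stretches of the other's 3′ end, exactly or within 2 mismatches. TUBB6 was likewise among the matches of TUBB2A. The part of shared reads in these pairs was not tested. TUBB2B stood farthest from the rest, at 0.386 from its nearest member TUBB2A and 1.11 from TUBA1B. Among 4117 other well-counted genes, the summed tubulin count was most like LYAR, a nucleolar protein gene (0.0469), FAM166A (0.0635), C17orf96 (0.110), CD3EAP, an RNA polymerase I subunit gene (0.128), and CSE1L, a nuclear export receptor gene (0.128). FAM166A is the gene whose end overlaps TUBB4B. This nearness rests on 4 libraries and is a description.

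The other alpha- and beta-tubulin genes were barely detected. The 8 further isotype genes (TUBA3C, TUBA3D, TUBA3E, TUBA8, TUBB1, TUBAL3, TUBB4A and TUBB8) had 56 to 97 reads per library together, and TUBA3D and TUBA3E had 0 in each. Only TUBB1, the platelet isotype, and TUBA8 passed the minimum of 10 reads. TUBB1 had 34 reads with CDK4/6 KD and 69 with scrambled siRNA (fold change: 0.470, interval 0.299 to 0.712), and 36 with PD0332991 and 58 with DMSO (fold change: 0.626, interval 0.399 to 0.960).

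The genes that fold tubulin and join it into dimers, which include the CCT chaperonin subunits, prefoldin and the tubulin cofactors, had medians nearer to 0 than the tubulin genes. Of 21 such genes, 2 were at least 2-fold lower in CDK4/6 KD and 0 after PD0332991, a share near or under that of all genes (7.62% and 7.06%), and the median log2 fold change was -0.31 in the siRNA arm and -0.22 in the PD0332991 arm. The interval lay under 1 for 15 and for 12 of them (31.9% and 28.6% of all genes, 46.2% and 40.4% of well-counted genes). It lay above 1 for 3 and for 6 (30.0% and 28.1% of all genes, 32.6% and 35.0% of well-counted genes). ARL2, the small GTPase that works with the cofactors, was at 0.237 in CDK4/6 KD (interval 0.191 to 0.289) but at 1.27 after PD0332991, and TBCB, a cofactor of alpha-tubulin, at 0.483 (interval 0.454 to 0.512) and 1.26. Against DMSO, TBCB in CDK4/6 KD was at 0.520, short of 2-fold. The chaperonin gene CCT2 was at 0.692 in CDK4/6 KD, and TCP1, another of its subunits, at 0.663 of DMSO after PD0332991 and 0.393 of scrambled siRNA. Only TBCEL, on 95 against 43 reads, was at least 2-fold higher after PD0332991 (fold change: 2.20, interval 1.53 to 3.26), and it was at 1.30 of scrambled siRNA (interval 0.959 to 1.76).

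Genes of tubulin modification showed no common direction, since the 14 of 16 that passed the minimum had a median log2 fold change of -0.0015 in the siRNA arm and -0.050 in the PD0332991 arm. TTLL4, a glutamylase, was in CDK4/6 KD at 0.269 of scrambled siRNA (interval 0.239 to 0.302) and 0.388 of DMSO (interval 0.342 to 0.438). It had 798 reads with DMSO, 802 with PD0332991, 1346 with scrambled siRNA and 383 with CDK4/6 KD. SVBP, the partner of the enzymes that remove the tail tyrosine, was at 1.81 of scrambled siRNA (interval 1.57 to 2.10) and 1.08 of DMSO (interval 0.952 to 1.23), the controls differing by 0.599. TTL, which adds that tyrosine back, was in CDK4/6 KD at 0.598 of scrambled siRNA (interval 0.554 to 0.644) and 0.809 of DMSO (interval 0.745 to 0.879). TTLL1, another glutamylase, went from 8 reads with DMSO to 39 with PD0332991 (fold change: 4.66, interval 2.25 to 12.1), and was at 2.80 of scrambled siRNA (interval 1.56 to 5.49). TTC5, which recognises nascent tubulin when its messages are degraded and was picked after its values were seen, was at 0.794 in CDK4/6 KD (interval 0.579 to 1.08) and 0.925 after PD0332991 (interval 0.676 to 1.26), with 78 to 93 reads per library. Both intervals held 1, while that of CDK4/6 KD to DMSO, at 0.709, ran from 0.515 to 0.970.

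Genes that bind, cut or turn over microtubules had medians of 0.017 in CDK4/6 KD and -0.18 after PD0332991 (22 of 23 past the minimum). STMN1, which sequesters tubulin dimers, was at 0.661 in CDK4/6 KD (interval 0.627 to 0.698) and 0.201 after PD0332991 (interval 0.186 to 0.217), with CDK4/6 KD at 0.472 of DMSO. Its relative STMN3 was at 1.94 of scrambled siRNA in CDK4/6 KD (interval 1.70 to 2.23) but at 0.659 of DMSO (interval 0.593 to 0.731), and the controls differed more (scrambled siRNA to DMSO, 0.339, interval 0.297 to 0.386). The gamma-, delta- and epsilon-tubulin genes with the gamma-tubulin ring genes, which start microtubules, had medians of 0.064 and -0.28 over 14 genes. TUBG1, the main gamma-tubulin gene, was at 0.591 in CDK4/6 KD (interval 0.556 to 0.629) and 0.477 after PD0332991 (interval 0.443 to 0.514), while TUBG2 was at 2.22 of DMSO after PD0332991 (interval 1.87 to 2.65) but at 1.43 of scrambled siRNA (interval 1.24 to 1.65), with the controls at 1.56. MZT1, a small ring subunit, was at 0.682 and 0.329.

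The 10 tubulin genes can be set beside dividing-cell genes measured in the same libraries. The 15 spindle assembly genes had a log2 median of -0.77 in CDK4/6 KD, close to the tubulin median of -0.74, and of -2.43 after PD0332991, far below the tubulin median of -0.84. The 8 proliferation genes had medians of -1.01 and -2.88. At least 2-fold lower were 4 of 15 spindle and 4 of 8 proliferation genes in CDK4/6 KD, against 7.62% of all genes. After PD0332991 these counts were 14 of 15 and 8 of 8, against 7.06%. MKI67, which marks cycling cells, was at 0.561 in CDK4/6 KD and 0.0757 after PD0332991. The lists also differed between controls, with medians of -0.45 for spindle and -0.62 for proliferation genes in scrambled siRNA to DMSO, where the tubulin median was 0.33. Against the other arm's control the spindle medians were -1.30 and -1.86 and the tubulin medians -0.58 and -1.23, so that in CDK4/6 KD they were no longer close. By that control, 11 of 15 spindle and 8 of 8 proliferation genes were at least 2-fold lower in CDK4/6 KD (8.16% of all genes). After PD0332991 the counts were 12 of 15 and 8 of 8 (8.17%). The part of cell division in the tubulin values was not tested.

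**Figure D4:**
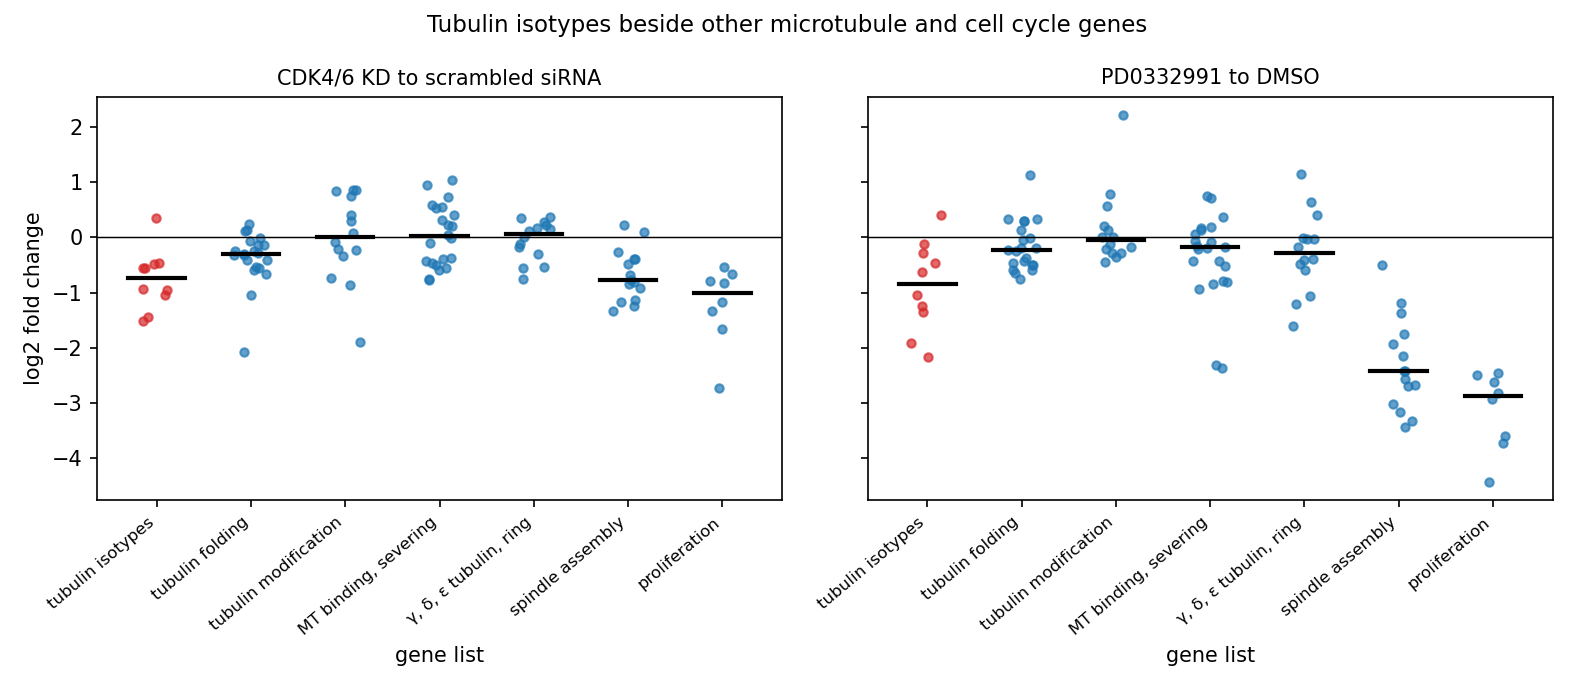
Log2 fold change of the 10 tubulin genes (red) and of the genes of 6 other microtubule and cell cycle lists (blue) in CDK4/6 KD to scrambled siRNA (left) and PD0332991 to DMSO (right), for genes that reached 10 reads in 1 or both libraries. Each point is 1 gene, spread sideways for visibility, and the black bar is the list median. The tubulin median lies near that of the spindle assembly genes on the left (-0.74 and -0.77) and above it on the right (-0.84 and -2.43).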

How the data were processed

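Total RNA of HepG2 cells was sequenced by the authors from 4 QuantSeq 3′ libraries as single 75-base reads, with no molecular identifiers named. What the authors deposited is the raw read count of each gene symbol, in 25737 entries per library, not normalized and not pooled. The submitters' processing notes name Bowtie2, edgeR and the build hg19. The counter, the annotation and the use of strand are not given in the sources used here. Entries that shared a symbol were added up.

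Libraries were scaled by TMM (edgeR 4.0.16 in R 4.3.3), with factors between 0.957 and 1.03. For each ratio, 0.5 reads scaled to library size were added to both counts, genes needed 10 reads in 1 or both libraries, and intervals were exact Clopper-Pearson intervals (scipy 1.17.1). The quasi-likelihood test of edgeR could not be fitted to single libraries. The steps were tested on simulated counts that held counting error only. That checks the calculation and says nothing of the spread between cultures. Sequence and positions come from RefSeq (GRCh38.p14) and GENCODE 29 (GRCh38), since the counts carry no coordinates. Named were all members, each member's nearest member, the 5 genes nearest to the summed tubulin pattern and, from each list, up to 3 genes per comparison whose interval end nearest to 1 lay farthest from 1. TTC5, the markers at 0 (RBFOX3, STMN2, KRT1, TP63, DSG3 and CD3E) were named after their values were seen. Members and lists were chosen with earlier results of these data known. Alternatives were the size factors of DESeq2 1.42.0, scaling by totals, 5 added reads, no minimum of reads, a 1.5-fold line, whole intervals past 2-fold, the other arm's control, and the best-counted entry where a symbol recurred.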

Additional observations from a re-analysis of the deposited data

How the results depend on the processing

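Of the alternative values of the summed fold changes, medians and member counts, 49 stayed close to the value reported and 8 moved, and no direction of these reversed. Member counts were called close up to a ratio of 1.5, so that 2 and 4 were close to 3. Values from the best-counted entry or with no minimum of reads could not move. TUBB had reads on 1 entry only, and all members passed the minimum. The tally of 49 is therefore not a measure of how stable the results are. With total counts alone the summed fold change in CDK4/6 KD was 0.532 and the median log2 fold change -0.64, and this scaling moved the median of all genes to 0.10. The same scaling put scrambled siRNA to DMSO at 1.01. Against the control library of the other arm, the summed fold change was 0.523 in CDK4/6 KD and 0.372 after PD0332991, and the medians were -0.58 and -1.23. In that setting TUBB2A and TUBB6 reached 1.09 and 1.03 in CDK4/6 KD, and TUBB2B 0.905 after PD0332991. At 1.5-fold, 5 genes were lower in CDK4/6 KD. The 3 genes at least 2-fold lower there became 2 with total counts or whole intervals and 4 against DMSO. The 5 genes after PD0332991 became 4 with whole intervals and 6 against scrambled siRNA. The alternatives for the difference between controls were chosen after seeing the data. No paired analysis was possible because each condition had 1 library and the labels carry no replicate numbers, and for the same reason no library could be left out. Depth limits TUBA4A most, with 139 to 223 reads.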
